A study of Mus musculus with 27 samples.

Results

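Pou5f1, Nanog, Sox2 and Sall4, the core transcription factors of pluripotency, were followed as 4 of the 38123 genes measured in mouse embryonic stem cells losing Dicer. The members were chosen by name, with Ensembl identifiers matched to symbols by the GENCODE M21 annotation, a rule that uses no measured value, though earlier results of these data were known when the genes were proposed. All 4 were found, and all passed the filter on low values in every comparison. All groups share a genotype, XY cells of the DTCM23/49 lines whose Dicer allele can be deleted. They were cultured on gelatin-coated plates with serum and leukemia inhibitory factor (LIF). Day 0 cells had not been induced. For the later groups, 800 nM of 4-hydroxytamoxifen was given to delete the RNase III domain, the part of the enzyme that cuts microRNA precursors, and Dicer-deficient colonies were selected and expanded. The protocol names ethanol-treated controls, but the labels mark none among the later libraries, so loss of Dicer cannot be told apart from drug, selection or time in culture. What drives the recombinase is not given in the sources used here. Polyadenylated RNA was sequenced from whole cells on 5 days (0, 4, 8, 10 and a label of 12) and from nuclear and cytoplasmic fractions at days 0 and 12. Each of the 9 groups has 3 replicates. Values are FPKM, fragment counts scaled by the length of the transcript and the size of the library, which are relative within a library and carry no amount of RNA per cell or per fraction.

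Oct4, the protein of Pou5f1, is a POU-domain factor that binds DNA together with the HMG-box factor Sox2 at composite elements in enhancers and promoters of stem cell genes, their own included. Nanog, a homeodomain protein, holds self-renewal when cytokine signals are weak, and its level is known to vary between single stem cells. Sall4, a zinc finger protein, binds Oct4 and Nanog and recruits the NuRD co-repressor complex. In the stem cell these factors keep lineage genes silent and each other active, and in bulk RNA fewer expressing cells and less RNA per cell cannot be told apart.

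On GRCm38 the 4 protein-coding genes lie apart from each other. Pou5f1 (ENSMUSG00000024406) is at chr17:35506018-35510772 on the plus strand, Nanog (ENSMUSG00000012396) at chr6:122707489-122714633 on the plus strand and Sox2 (ENSMUSG00000074637) at chr3:34650405-34652461 on the plus strand. Sall4 (ENSMUSG00000027547) is at chr2:168748332-168767943 on the minus strand. RefSeq windows around transcript starts (GRCm38.p6) were found for 3 of the 4 genes. The 250 bases before the first start of each are shown because Oct4 and Sox2 are known to act on these same genes. Capitals mark a match, on the minus strand, to the composite Oct4-Sox2 element, 14 bases made of the Sox core CATTGT, 1 free base and ATGCAAA. All sequences are on the plus strand, 5′ to 3′.
Nanog, chr6:122707239-122707488: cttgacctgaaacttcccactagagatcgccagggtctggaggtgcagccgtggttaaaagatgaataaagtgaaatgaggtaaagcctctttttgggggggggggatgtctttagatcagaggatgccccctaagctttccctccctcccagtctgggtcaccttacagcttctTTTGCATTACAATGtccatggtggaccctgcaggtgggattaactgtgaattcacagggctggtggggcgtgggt
Pou5f1, chr17:35505782-35506031: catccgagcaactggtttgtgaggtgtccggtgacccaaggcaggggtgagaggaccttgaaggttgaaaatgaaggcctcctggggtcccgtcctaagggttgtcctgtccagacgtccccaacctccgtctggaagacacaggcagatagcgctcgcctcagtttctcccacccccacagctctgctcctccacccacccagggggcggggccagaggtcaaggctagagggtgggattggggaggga
Sox2, chr3:34649745-34649994: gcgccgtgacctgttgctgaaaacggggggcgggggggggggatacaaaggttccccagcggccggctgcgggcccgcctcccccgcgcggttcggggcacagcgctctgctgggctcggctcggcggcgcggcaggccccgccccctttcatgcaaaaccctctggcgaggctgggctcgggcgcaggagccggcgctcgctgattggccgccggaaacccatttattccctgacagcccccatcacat
The match in Nanog, TTTGCATTACAATG, has its first base 75 bases before the start, counted as position -75. Among 32851 windows of 300 bases (250 before and 50 after a start, both strands searched), the composite was found in 2, or 0.00609%, both of them windows of Nanog that overlap each other. The octamer ATGCAAAT was in 1.74% of windows and the Sox core CATTGT, which the composite contains, in 12.6%. The Pou5f1 and Sox2 windows shown hold none of the 3 sets of letters, which says nothing about elements farther away. A second Pou5f1 window, at a later start and not shown, holds the Sox core alone, on the minus strand at position -158. A match is a description of the letters and not evidence of binding.

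Dicer1, the gene targeted here, was read first as a check on the labels. Whole cells had 16.3 ± 1.47 FPKM (SD, n = 3) at day 0 and 1.41 ± 0.46, 1.71 ± 0.17 and 1.83 ± 0.12 at days 4, 8 and 10, but 14.6 ± 1.77 in the 3 whole cell libraries labelled day 12, which goes against that label. Directions drawn from the libraries labelled day 12 of whole cells therefore carry this reservation throughout. The day 12 fractions were low, at 4.20 ± 1.11 FPKM in the nucleus against 13.3 ± 4.75 at day 0 and at 3.06 ± 0.37 in the cytoplasm against 22.5 ± 1.18. Libraries summed to 275545 to 459892 FPKM, and steps between low values gave depths of 0.721 to 3.62 relative to day 4 replicate 1 of whole cells. Day 0 of whole cells was the deepest group (3.07 to 3.62). Correlations within groups were 0.962 to 0.996 over all genes on the log2 scale. A few libraries stood apart from their group, nucleus day 0 replicate 3, nucleus day 12 replicate 1 and whole cell day 4 replicate 3. Calls that changed without them are given with the results or, as ranges, in the closing sections. All 10 markers of embryonic stem cells were detected in every group, and their sum was highest in 2 of the libraries that stood apart, nucleus day 0 replicate 3 (4831 FPKM) and whole cell day 4 replicate 3 (4493 FPKM). In the other whole cell libraries it was 2083 to 2796 FPKM.

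**Figure D1:**
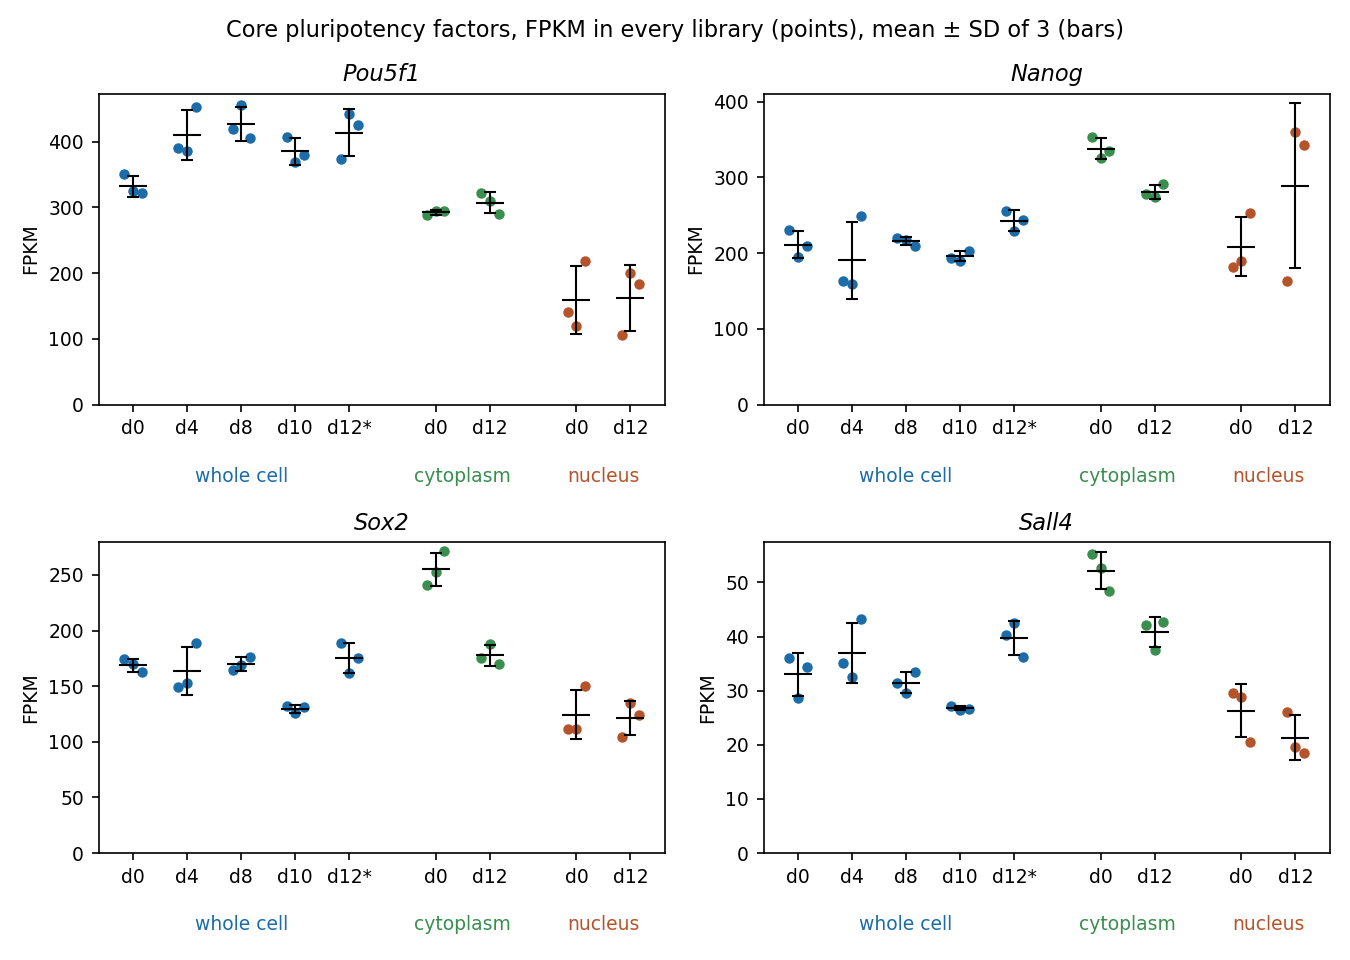
FPKM of each factor (vertical axis, from 0) in all 27 libraries, by day and compartment (horizontal axis). Points are libraries, and the bars are mean ± SD of 3. The asterisk marks the whole cell libraries labelled day 12, whose Dicer1 level goes against the label. Pou5f1 was higher in all later whole cell libraries than in all 3 of day 0, and Sox2 and Sall4 had their lowest whole cell levels at day 10.

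All 4 factors were abundant throughout. Pou5f1, Nanog and Sox2 ranked among the top 445 of 38123 genes in every library, and Sall4 ranked between 1130 and 3420. On the FPKM scale, which takes transcript length into account, the order Pou5f1, Nanog, Sox2, Sall4 held in 17 libraries, including all 15 of whole cells. The places of Pou5f1 and Nanog in it are uncertain, because of the overlapping antisense gene and the processed copies described below. In the other 10, which were all 6 nuclear libraries, the 3 of cytoplasm day 0 and cytoplasm day 12 replicate 3, Nanog stood above Pou5f1. Group means of Pou5f1 spanned 2.68-fold over the 9 groups, those of Sall4 2.44-fold, those of Sox2 2.10-fold and those of Nanog 1.78-fold. Ordered by mean, Pou5f1 was lowest in the nucleus, then in the cytoplasm and highest in whole cells, without overlap between the compartments, and the 4 later whole cell groups overlapped their neighbours. Sox2 and Sall4 shared the ends of their order, with both nuclear groups lowest, whole cell day 10 next, and cytoplasm day 0 highest and apart from cytoplasm day 12. Whole cell day 10 overlapped both nuclear groups for Sox2, and nucleus day 0 but not nucleus day 12 for Sall4. Nanog had another order, with whole cell day 4 lowest (191 ± 51.2 FPKM, SD, n = 3) and cytoplasm day 0 highest (338 ± 13.9), and its 4 lowest groups each overlapped the next.

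Pou5f1 was lowest in whole cells at day 0, with 350, 325 and 322 FPKM. It stood at 390, 386 and 453 FPKM at day 4, at 418, 455 and 406 at day 8, and at 407, 369 and 379 at day 10. The 3 day 0 libraries lay below each later whole cell library. On the log2(FPKM + 0.5) scale the change was 0.36 ± 0.09 (SE) at day 8, a 1.28-fold rise (limma, adjusted p = 0.00821). At day 4 it was 0.30 ± 0.09 (limma, adjusted p = 0.0680) and at day 10 0.21 ± 0.09 (limma, adjusted p = 0.0699), neither past the threshold of 0.05. Under median-of-ratios scaling day 8 did not pass either (0.27, adjusted p = 0.109). Pou5f1 was the only factor of the 4 past the threshold at day 8, where 29.8% of all 15991 genes passed and 20.2% passed upward.

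Sox2 passed no test at days 4 and 8 and fell at day 10. The libraries had 174, 170 and 162 FPKM at day 0, 149, 153 and 189 at day 4, and 164, 169 and 176 at day 8. At day 10 they had 133, 126 and 131, all 3 below every other whole cell library. The log2 change at day 10 was -0.38 ± 0.09 (SE), or 0.769 of day 0 (limma, adjusted p = 0.00401), and the call held under every alternative tried. The ratio of Pou5f1 to Sox2 was 1.97 ± 0.05 (SD, n = 3) at day 0 and 2.97 ± 0.10 at day 10.

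Sall4, far less abundant, had 36.0, 28.6 and 34.4 FPKM at day 0, 35.1, 32.6 and 43.3 at day 4, and 31.5, 29.5 and 33.4 at day 8. At day 10 its libraries had 27.1, 26.5 and 26.7, below all 3 of day 0. The log2 change of -0.29 ± 0.11 (SE) was at the edge of the threshold (limma, adjusted p = 0.04998). It lost the call without whole cell day 0 replicate 1 (-0.23, adjusted p = 0.181), without day 0 replicate 3 (-0.26, 0.138), and without any 1 of the day 10 libraries (adjusted p of 0.0906 to 0.111). Sox2 and Sall4 were thus the 2 members of 4 called at day 10, both lower, in a comparison where 43.7% of all genes passed and 16.0% passed downward.

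Nanog passed in no comparison of whole cells with day 0. It had 230, 195 and 209 FPKM at day 0, 163, 159 and 250 at day 4, 221, 218 and 210 at day 8, and 194, 190 and 203 at day 10. The log2 changes lay between -0.18 at day 4 and 0.20 in the libraries labelled day 12. The 95% intervals reached from -0.48 to 0.12 at day 4, from -0.26 to 0.33 at day 8 and from -0.40 to 0.19 at day 10, so changes of these sizes were not resolved. Day 4 turned on 1 library: without whole cell day 4 replicate 3 the change was -0.39 (limma, adjusted p = 0.00334), in a fit that called 1721 of 16031 genes. With all libraries none of the 4 members passed limma at day 4, 1 of them (Pou5f1) had an unadjusted p under 0.05, and 6.70% of all genes passed.

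**Figure D2:**
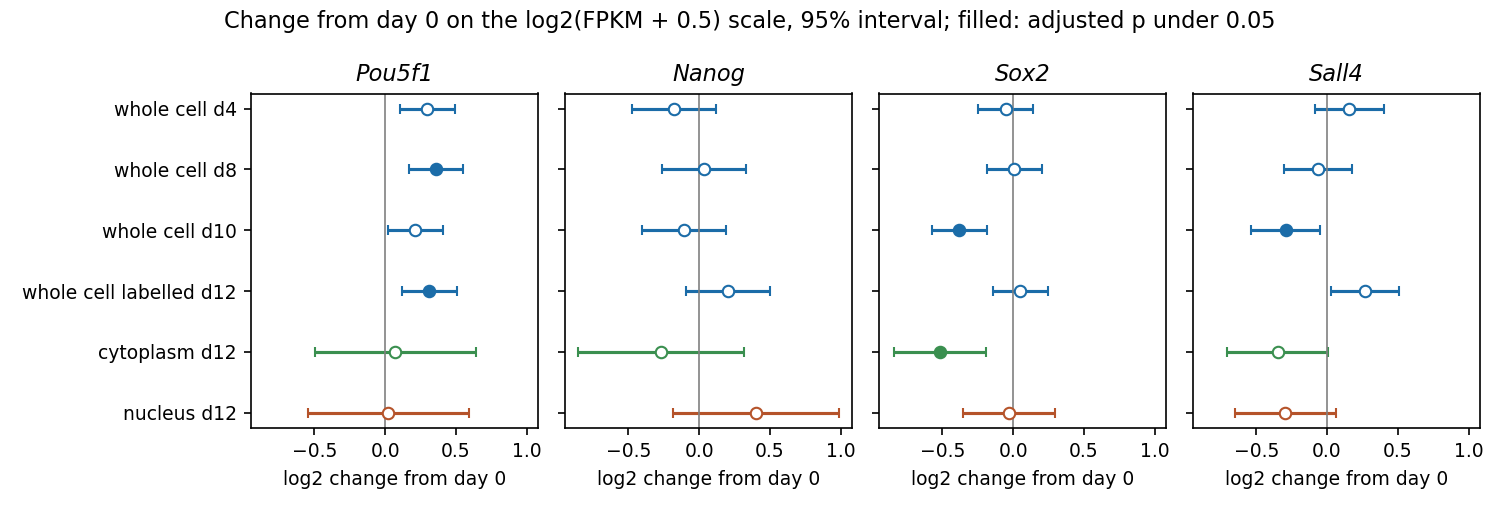
Change of each factor from day 0 (horizontal axis, log2(FPKM + 0.5) scale) with 95% intervals from limma, in whole cells (blue), cytoplasm (green) and nucleus (orange). Filled points passed an adjusted p of 0.05. Pou5f1 lies to the right of 0 in all 4 whole cell comparisons, and Sox2 lies to the left in whole cells at day 10 and in cytoplasm at day 12. The comparisons within a compartment share their day 0 libraries.

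In the whole cell libraries labelled day 12, with Dicer1 near its day 0 level, Pou5f1 had 373, 441 and 425 FPKM and Nanog 256, 229 and 244. Sox2 had 189, 162 and 175 FPKM, overlapping day 0, and Sall4 40.3, 42.6 and 36.3, above all 3 day 0 libraries. Against day 0 only Pou5f1 passed (0.31 ± 0.09, SE, limma, adjusted p = 0.0352), 1 of 4 where 13.6% of all genes passed and 10.2% passed upward. It was lost on leaving out day 0 replicate 2 (0.30, adjusted p = 0.126) or replicate 3 (0.29, 0.109) of whole cells, and on leaving out replicate 2 (0.26, 0.137) or replicate 3 (0.29, 0.117) of the libraries labelled day 12. Against day 10, Sox2 was higher by 0.43 ± 0.09 (SE, limma, adjusted p = 0.00169) and Sall4 by 0.56 ± 0.11 (SE, limma, adjusted p = 0.00131), 2 of 4 where 45.8% of all genes passed and 20.6% passed upward. Over the 5 days an F-test was passed by Sox2 (limma, adjusted p = 0.00658), Sall4 (0.00735) and Pou5f1 (0.0237) but not by Nanog (0.172), 3 of 4 against 54.2% of all genes. With day 0 replicate 2 or 3 of whole cells left out, the F-test of Pou5f1 did not pass (adjusted p = 0.0931 and 0.0946), and without whole cell day 4 replicate 3 that of Nanog did (0.000147).

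In the fractions at day 0 all 4 had lower FPKM in each nuclear library than in each cytoplasmic one, as did 22.4% of all 17124 genes tested. Pou5f1 had 141, 119 and 218 FPKM in the nucleus and 288, 294 and 294 in the cytoplasm. Sox2 had 111, 112 and 150 in the nucleus against 241, 252 and 271, and Sall4 29.6, 28.8 and 20.6 against 55.2, 52.7 and 48.4. Nanog, with 182, 190 and 253 FPKM in the nucleus and 353, 326 and 336 in the cytoplasm, had the smallest difference of the 4 on the log2 scale. The log2 difference, nucleus against cytoplasm, was -1.05 ± 0.15 (SE) for Sox2 (limma, adjusted p = 0.000294), -0.99 ± 0.16 for Sall4 (0.000765) and -0.92 ± 0.26 for Pou5f1 (0.0151). For Nanog it was -0.71 ± 0.26 (limma, adjusted p = 0.0512). So 3 of 4 were called lower in the nucleus, where 41.8% of all genes were called and 16.4% were called lower. The Pou5f1 call ended without nucleus day 0 replicate 2 (-0.73, adjusted p = 0.0553) and with no filter on low values (-0.92, 0.0522). Messenger RNA is made in the nucleus and exported for translation, and the 6 nuclear RNAs measured as a check, Malat1 among them, were all called higher in the nuclear libraries, with sums of 327 to 534 FPKM against 31.8 to 35.3 in the cytoplasm. Some messenger RNAs were higher there too. Fibroblast markers summed to 140 to 242 FPKM against 28.0 to 33.9, with 5 of 6 measured called higher and 0 lower, where 25.3% of all genes were called higher. The cause was not tested.

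At day 12 Sox2, Sall4 and Pou5f1 were again lower in the nucleus, and Nanog was not. Sox2 had 104, 135 and 124 FPKM in the nucleus and 176, 188 and 170 in the cytoplasm, a difference of -0.56 ± 0.15 (SE, limma, adjusted p = 0.0141) that did not pass without cytoplasm day 12 replicate 2 (-0.52, 0.0578). Sall4 had 26.1, 19.5 and 18.4 against 42.1, 37.6 and 42.7, and Pou5f1 105, 199 and 183 against 321, 310 and 290. Their differences were -0.93 ± 0.16 (SE, limma, adjusted p = 0.00145) and -0.97 ± 0.26 (0.0144, or 0.0504 with no filter on low values). For Nanog the nuclear libraries straddled the cytoplasm, with 164, 360 and 343 FPKM against 278, 274 and 291, and the difference was -0.04 ± 0.26 (SE, limma, adjusted p = 0.921). The 3 of 4 members called lower stand beside 34.1% of all genes called and 15.7% called lower.

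Of the nuclear libraries 2 lay farthest from their group, in other RNAs too. Nucleus day 0 replicate 3 had the highest Pou5f1, Nanog and Sox2 and the lowest Sall4 of its group, and nucleus day 12 replicate 1 had the lowest Pou5f1, Nanog and Sox2 and the highest Sall4 of its own. The 6 nuclear RNAs summed to 534 FPKM in the former (327 and 361 in the other two) and to 192 in the latter (311 and 347 in the other two). What sets these 2 libraries apart was not tested. They were picked by their correlation with their group over all genes, a choice made with values seen, so the fits without them describe the remaining 10 libraries. There Nanog was lower in the nucleus at day 0 (-0.86 ± 0.06, SE, limma, adjusted p = 2.74e-06) and higher at day 12 (0.32 ± 0.06, 0.00123). The change of its nucleus to cytoplasm ratio was then 1.18 ± 0.08 (SE, limma, adjusted p = 2.78e-05), that of Sox2 0.74 ± 0.10 (0.000592) and that of Pou5f1 0.49 ± 0.12 (0.00993), with Sall4 at -0.26 ± 0.10 (0.0772). Calls were common in this fit. Of all 17003 genes, 10885 passed between the fractions at day 0, 10197 at day 12 and 6580 for the ratio change.

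**Figure D3:**
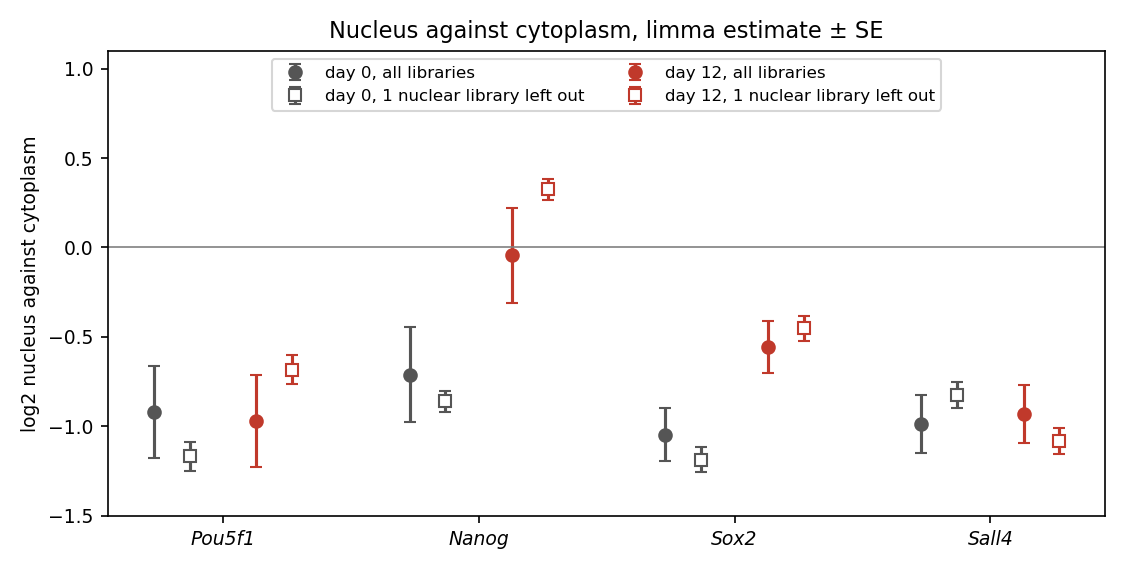
Difference between nucleus and cytoplasm for each factor (vertical axis, log2(FPKM + 0.5) scale, limma estimate ± SE) at day 0 (grey) and day 12 (red). Filled circles use all 12 fraction libraries, and open squares leave out nucleus day 0 replicate 3 and nucleus day 12 replicate 1. Nanog at day 12 lies near 0 with all libraries and above 0 without them, while the other factors stay below 0 in both.

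With all 12 libraries the ratio change passed for no member by limma (Nanog 0.67 ± 0.37, SE, adjusted p = 0.410, Sox2 0.49 ± 0.21, 0.272). One member, Sox2, had an unadjusted p under 0.05, and 1.33% of all genes passed. Nanog passed without nucleus day 12 replicate 1 alone (1.04, limma, adjusted p = 0.0102), and Sox2 without nucleus day 0 replicate 3 alone (0.63, 0.0446). Those fits called 1699 of 17172 and 1443 of 16963 genes for the ratio change. Within the nucleus no member passed between day 0 and day 12 either, 0 of 4 also at an unadjusted p under 0.05, where 36.7% of all genes passed. Without nucleus day 12 replicate 1 alone Nanog rose there (0.77, limma, adjusted p = 0.00231) and Sall4 fell (-0.44, 0.0400), as Sall4 did without nucleus day 0 replicate 3 alone (-0.46, 0.0246). Without both outlying libraries Pou5f1 (0.56, 0.000728), Nanog (0.92, 7.26e-06) and Sox2 (0.22, 0.0351) rose, while Sall4 fell (-0.61, 0.000235). In that last fit 9613 of all 17003 genes passed within the nucleus.

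In the cytoplasm Sox2 fell. Its 176, 188 and 170 FPKM at day 12 lay below the 241, 252 and 271 of day 0. On the log2 scale this was -0.52 ± 0.15 (SE), or 0.698 of the starting level (limma, adjusted p = 0.0200). It did not pass without cytoplasm day 0 replicate 2 (-0.52, adjusted p = 0.0573) or replicate 3 (-0.47, 0.0774) and without cytoplasm day 12 replicate 1 (-0.51, 0.0639) or replicate 3 (-0.49, 0.0715). Nanog and Sall4 also had all 3 day 12 libraries below all 3 of day 0, as did 34.0% of all genes, but did not pass, at -0.27 ± 0.26 (SE, limma, adjusted p = 0.489) and -0.35 ± 0.16 (0.127). In a fit of the cytoplasm alone, whose spread is smaller, both did pass (limma, Nanog adjusted p = 0.00318 and Sall4 0.00375). That fit called 9841 of 15221 genes. Pou5f1 overlapped, with a change of 0.07 ± 0.26 (SE, limma, adjusted p = 0.882). So in the fit of all fraction libraries 1 of 4 was called, lower, where 32.6% of all genes were called and 16.6% were called lower.

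Whether the cytoplasm at day 12 moved like whole cells was tested in 1 fit of all 27 libraries. The cytoplasmic change minus the whole cell change at day 10 was -0.14 ± 0.16 (SE) for Sox2 and -0.06 ± 0.20 for Sall4, with 95% intervals of -0.48 to 0.20 and -0.47 to 0.35. No member passed that limma test, 0 of 4 also at an unadjusted p under 0.05, and 4.83% of all 17609 genes did. For the nucleus no member passed either, 1 of them (Sox2, 0.35 ± 0.16, SE, adjusted p = 0.160) had an unadjusted p under 0.05, and 15.7% of all genes passed. Against the libraries labelled day 12 the cytoplasmic change was lower for Sall4 by -0.62 ± 0.20 (SE, limma, adjusted p = 0.0192) and for Sox2 by -0.57 ± 0.16 (0.0105), 2 of 4 where 32.6% of all genes passed and 19.1% passed downward. Neither passed with median-of-ratios scaling (Sox2 -0.46, adjusted p = 0.0716, and Sall4 -0.50, 0.0769). Sall4 no longer passed on leaving out day 0 replicate 2 of whole cells (-0.52, adjusted p = 0.0650) or cytoplasm day 12 replicate 2 (-0.56, 0.0519).

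Exact 2-sided permutation tests of mean FPKM, which cannot go below p = 0.1 with 3 against 3, reached that value wherever groups did not overlap. These were Pou5f1 at all later whole cell days against day 0 (above, as for 12.1% of genes at day 4, 33.8% at day 8, 38.6% at day 10 and 27.8% in the libraries labelled day 12). Others were Sox2 and Sall4 at day 10 (below, 25.3% of genes) and Sall4 in the libraries labelled day 12 against day 0 (above). Nanog, Sox2 and Sall4 were above day 10 in those libraries (29.3% of genes). In the nucleus all 4 were below the cytoplasm at day 0 (22.4% of genes), and Pou5f1, Sox2 and Sall4 at day 12 (24.2%). Within the cytoplasm Nanog, Sox2 and Sall4 were below day 0 at day 12 (34.0% of genes).

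An annotated antisense gene overlaps Pou5f1. Gm19553 (ENSMUSG00000093516) shares 317 of its 494 exonic bases (64.2%) with Pou5f1 exons on the opposite strand, which are 14.1% of the exonic bases of Pou5f1. It was listed at 384 ± 24.7 FPKM (SD, n = 3) in whole cells at day 0 and at a median of 373 over the 27 libraries. Its ratio to Pou5f1 was 1.15 ± 0.02 (SD, n = 3) in whole cells at day 0, 1.05 ± 0.01 at day 10, 0.956 ± 0.06 in the nucleus and 0.930 ± 0.04 in the cytoplasm at day 0. The library kit was directional, but the strand setting of the counting is not given in the sources used here, so reads of this pair cannot be told apart. In whole cells Gm19553 passed in no comparison (0.07 ± 0.12, SE, limma, adjusted p = 0.662 at day 10), and in the nucleus it was lower than in the cytoplasm at both days (-0.88 ± 0.26, 0.0212, and -0.85 ± 0.26, 0.0296). Without the 2 outlying nuclear libraries Gm19553 rose within the nucleus (0.54 ± 0.10, SE, limma, adjusted p = 0.00155) and in the ratio change (0.58 ± 0.13, 0.00733). Pou5f1 rose by 0.56 and 0.49 in that fit, which called 9613 and 6580 of 17003 genes. Gm14261, which overlaps Sall4 on the opposite strand with 526 of 1429 exonic bases (36.8%), was low, at a median of 4.99 FPKM. Sox2ot, within which Sox2 lies, had no value under its GENCODE M21 identifier (ENSMUSG00000105265) and was not analysed here. Pou5f1 and Nanog are also known to have processed copies in the genome, and how reads with several matches were counted is not given in the sources used here, so their values are uncertain to that extent.

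**Figure D4:**
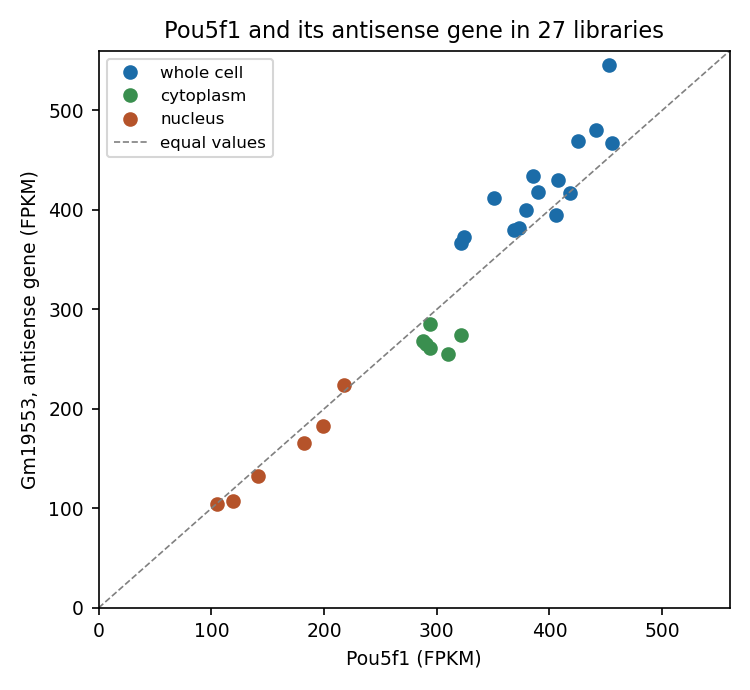
FPKM of the antisense gene Gm19553 (vertical axis) against FPKM of Pou5f1 (horizontal axis) in 27 libraries, coloured by compartment, with the line of equal values. Nuclear, cytoplasmic and whole cell libraries lie along the line, from 104 to 546 FPKM for Gm19553.

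Over the 9 group means Sox2 and Sall4 had the most similar patterns of the 4 (Pearson r = 0.944). Sall4 ranked 6 among 9012 genes ordered by their likeness to Sox2, and Sox2 ranked 10 for Sall4. Pou5f1 and Nanog differed most (r = -0.26). These are descriptions over 9 groups, in which the 4 genes were read from the same libraries with the same normalisation. Among the genes most like each factor were Suclg1, Atp5b and Cfl1 for Pou5f1 (r of 0.994, 0.991 and 0.990), Chmp4c and Smg6 for Nanog (0.978 and 0.929), Ube4b, Nusap1 and Lrr1 for Sox2 (0.988, 0.985 and 0.950), and Psip1, Ppm1b and Ddx59 for Sall4 (0.978, 0.970 and 0.969).

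The factors work within a network, and its other genes were counted at day 10 in whole cells, where 27.7% of all genes were called higher and 16.0% lower. Of 11 naive partner factors, transcription factors that sustain the ground state beside Oct4, 6 rose and 0 fell by limma, with a median of 0.35 against 0.09 over all genes. The counts were 4 and 1 with median-of-ratios scaling and 3 and 1 with quantile normalization. Klf2, a zinc finger activator, led with 114 ± 4.28 to 268 ± 20.0 FPKM (SD, n = 3), a log2 change of 1.22, followed by Tbx3 (0.59) and Tfcp2l1 (0.52). Of 9 primed pluripotency factors, which mark the epiblast stage, 7 fell and 2 rose, with a median of -1.12, and 7 and 1 under either scaling. Otx2, a homeodomain factor of the primed state, went from 12.4 ± 1.15 to 2.69 ± 0.35 FPKM (log2 change -2.02), the de novo DNA methyltransferase gene Dnmt3b from 134 ± 20.2 to 45.2 ± 0.87 (-1.54), and Lef1, a factor of Wnt signalling, from 3.24 ± 0.37 to 1.09 ± 0.11 (-1.23). The 2 that rose were Sall2 (0.70) and Foxd3 (0.44), the latter named after its value was seen.

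Target genes of the core factors moved both ways. Of 19, 5 rose and 6 fell, 3 and 7 with median-of-ratios scaling and 4 and 4 without the libraries labelled day 12. The uridine phosphorylase gene Upp1 fell from 216 ± 15.7 to 79.6 ± 3.66 FPKM (SD, n = 3, log2 change -1.43) and Eras, an embryonic Ras gene, from 11.7 ± 0.89 to 4.35 ± 0.56 (-1.33), while Gdf3, a TGF-beta family ligand, rose from 66.8 ± 3.69 to 106 ± 6.52 (0.66). The protein complexes that work with the factors were counted next. Among 11 NuRD genes, whose complex Sall4 recruits, 2 rose and 1 fell, led by Mta3 (0.70), with Rbbp4 (-0.27) and Rbbp7 (0.21). Of 10 esBAF genes, of the stem cell chromatin remodeller, Smarcb1 rose (0.20) and Bcl7c fell (-0.53). Of 10 protein partners Zfx rose (0.59), and Wdr5 (-0.52) and Hells (-0.48) fell.

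Relatives of the 4 factors were counted as families. Of 3 Sall genes Sall3 rose from 0.603 ± 0.14 to 3.77 ± 0.34 FPKM (SD, n = 3, log2 change 1.96) and Sall2 from 3.99 ± 0.54 to 6.74 ± 0.06 (0.70). Of 11 measured Sox genes Sox1, a neural factor, rose from 0.958 ± 0.17 to 6.26 ± 0.60 FPKM (2.22) and Sox13 by 0.45, and Sox12 fell by 0.39. Of 8 measured POU genes 3 rose and 3 fell, among them Pou4f2 (1.48) and Pou3f1 (-1.08), the latter also a primed factor. Of 10 embryonic stem cell markers 2 rose and 3 fell at day 10, and 1 rose and 3 fell in the cytoplasm at day 12. All of these markers but Esrrb, a naive partner, are also in the list of targets, so these counts repeat genes counted above. Beside these changes 6 of 9 measured trophectoderm markers rose and 1 fell at day 10, with sums of 156 to 206 FPKM at day 0 and 530 to 565 at day 10. Krt8 (73.1 ± 15.2 to 262 ± 14.4 FPKM, SD, n = 3) and Krt18 (75.5 ± 10.8 to 247 ± 8.15) made up most of the later sum. Hand1, at a far lower level, went from 1.61 ± 0.49 to 5.20 ± 0.54 FPKM (log2 change 1.46). Fibroblast markers summed to 24.7 to 32.2 and 182 to 188 FPKM (3 of 5 measured rose and 1 fell, Fap at 0). Most of the day 10 sum was Acta2, which went from 19.1 ± 3.81 to 174 ± 3.61 FPKM (SD, n = 3), and the one that fell was Thy1, from 7.62 ± 0.33 to 1.82 ± 0.46. Primitive endoderm markers summed to 15.9 to 18.8 and 32.8 to 36.9 FPKM (2 of 7 rose, 0 fell). Most of their day 10 sum was Col4a1, which went from 6.93 ± 0.40 to 23.5 ± 1.14 FPKM (SD, n = 3). Neuroectoderm markers summed to 51.8 to 64.5 and 73.3 to 75.1 (2 of 5 rose, 1 fell) and mesoderm markers to 2.25 to 2.47 and 3.16 to 4.58 (1 of 5 rose, 0 fell). The part of all these markers in the values of the 4 factors was not tested.

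In the cytoplasm at day 12, where 16.0% of all genes were called higher and 16.6% lower, 7 of 19 targets of the core factors fell and 2 rose, with a median of -0.49 against -0.01 over all genes. Their summed level went from 3396 to 3435 FPKM at day 0 down to 2070 to 2150. The embryonic stem cell markers, all in this list but Esrrb, summed to 2504 to 2531 FPKM at day 0 and 1501 to 1591 at day 12. Upp1 had a log2 change of -2.08, Eras of -1.84 and the cell cycle factor gene Mybl2 of -1.31. Of the naive partners 1 rose, Klf2 (1.01), and 3 fell, among them the nuclear receptor genes Nr5a2 (-1.23) and Nr0b1 (-0.57). Of 8 measured primed factors 2 rose, Foxd3 (1.02) and Sall2 (1.02), and 1 fell, Lef1 (-0.57). Of the NuRD genes Chd4, its remodelling ATPase, fell from 86.9 ± 7.28 to 42.3 ± 1.87 FPKM (SD, n = 3, log2 change -1.03) and Mta1 by 0.55, while Mta3 rose (0.56). Of 10 esBAF genes Actl6a (-0.39) and Smarcd1 (-0.35) fell, and of 10 protein partners Zfx rose (0.80) and Wdr5 (-0.59) and Hells (-0.51) fell. Sall3 (1.63) and Sox1 (2.04) rose here too, and Sox15 (-1.33) and Sox3 (-0.99) fell. Of 9 measured POU genes 4 rose, with Pou6f1 (1.12) named, and 2 fell. Trophectoderm marker sums were 235 to 247 FPKM at day 0 and 413 to 453 at day 12 (6 of 9 measured rose and 1 fell), and their part in these values was not tested. Among these markers Hand1 went from 0.902 ± 0.04 to 10.6 ± 0.28 FPKM (SD, n = 3, log2 change 2.99). Gata3 went from 0.255 ± 0.03 to 2.95 ± 0.55 FPKM (2.18) and Krt8 from 83.4 ± 2.71 to 186 ± 7.62 (1.15). Without the 2 outlying nuclear libraries 3 targets rose and 12 fell, and 3 naive partners rose and 5 fell, in a fit that called 28.2% of all genes higher and 31.2% lower.

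**Figure D5:**
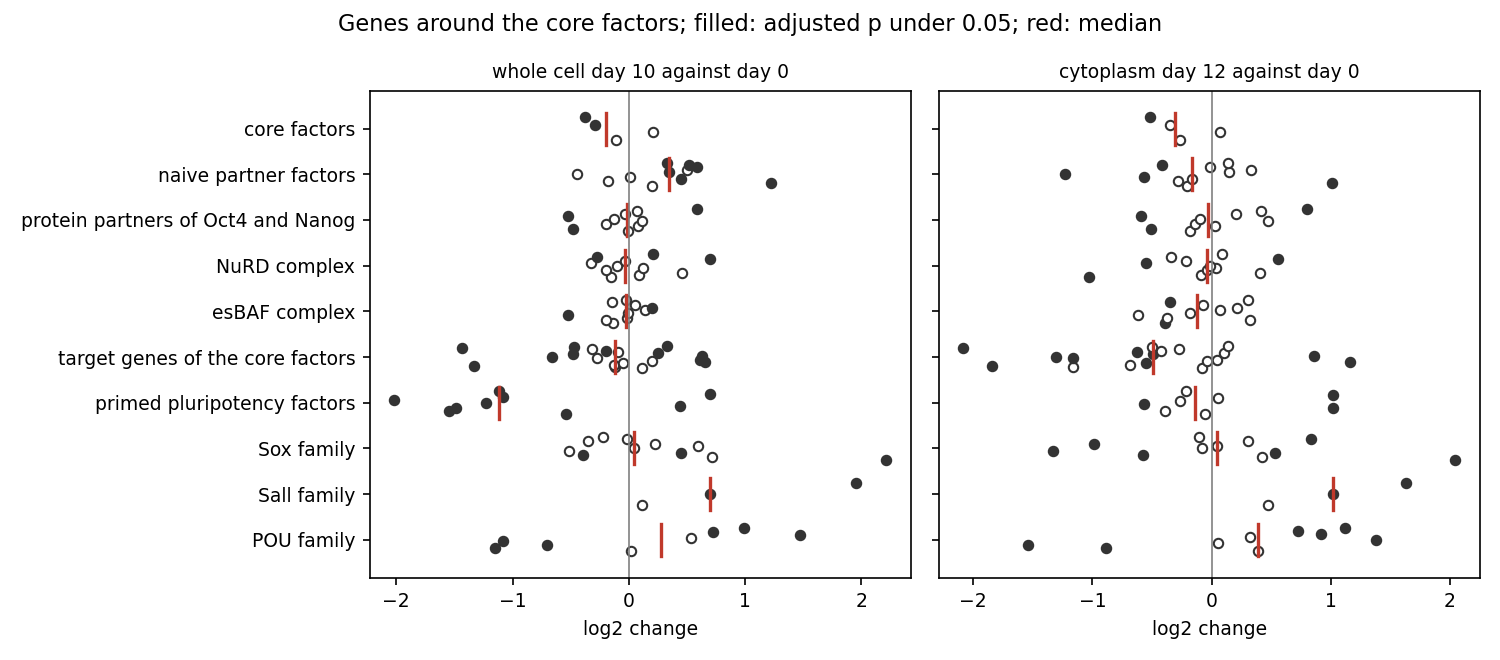
Log2 change of each measured gene of the lists (points, horizontal axis) from day 0 to day 10 in whole cells (left) and to day 12 in the cytoplasm (right). Filled points passed an adjusted p of 0.05, and red bars are list medians. In whole cells the primed factors lie mostly to the left of 0, with a median of -1.12, and in the cytoplasm the targets have a median of -0.49.

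Between the fractions at day 0 many network genes were called lower in the nucleus, where 16.4% of all genes were called lower. This was so for 8 of 11 naive partners (median -0.71 against 0.12 over all genes), 8 of 11 NuRD genes (-0.61) and 7 of 10 esBAF genes (-0.55), with 0, 0 and 1 higher. Of the 19 targets 2 were lower and 3 higher. Quantile normalization gave 9, 7 and 6 lower for the first 3 lists and median-of-ratios scaling 9, 9 and 7.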

How the data were processed

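Per the file headers, the authors deposited 1 FPKM value per gene and library, for 38123 genes of 27 libraries, of which 36253 had a symbol in GENCODE M21 (GRCm38). Per the submitters' processing notes, the tools were TopHat2 (2.0.9) and Cufflinks (1.3.0) and the build mm9, with no roles stated. The annotation, the strand setting and the counting of multi-mapping reads were not given in the sources used here. Printed coordinates are those of GRCm38. Read totals are unknown.

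Values were tested as log2(FPKM + 0.5) with limma 3.58.1 (eBayes with a trend) in R 4.3.3, with Benjamini-Hochberg adjustment over all genes of a fit at 0.05. The filter kept genes whose mean reached 0.5 FPKM in any group: 15991 over 15 whole cell libraries, 17124 over 12 fraction libraries and 17609 over all 27. For low genes this scale makes folds too small. The protocol says that induction was done in triplicate and nothing more on separate cultures, so the p-values reflect spread between these libraries, which may be technical. The model fit was tested on simulated data with independent noise and the same spread per gene in all groups. That test says nothing about groups of unequal spread, such as the nuclear and cytoplasmic libraries. Intervals are at 95%.

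The members and the gene lists were chosen with earlier results of these data known. The text names the 4 members, Dicer1, overlapping genes, and of each list up to 3 genes with the largest passing change at day 10 in whole cells and at day 12 in the cytoplasm that reached 2 FPKM. It also names the 3 genes per member with the highest correlation of group means among those with at least 5 FPKM, without predicted models, of which 1 is not reported here. Other settings tried were a pseudocount of 0.1 or 1, no filter, a mean of at least 1 FPKM, median-of-ratios and quantile scaling, a replicate block, coding and lncRNA genes alone, only the groups compared, and libraries left out. List counts and antisense genes under alternatives were added after seeing the data. Python 3.11.15 with pandas 2.3.3 and matplotlib 3.10.9 was used for the rest.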

Additional observations from a re-analysis of the deposited data

Results flagged for a closer look

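The change in the cytoplasm from day 0 to day 12 differed from that in the whole cell libraries labelled day 12 for 2 of the 4 factors, by a test of the difference in 1 fit of all 27 libraries. In that test 32.6% of all 17609 genes passed and 19.1% passed downward. Sall4 differed by -0.62 ± 0.20 (SE, limma, adjusted p = 0.0192), being -0.35 in the cytoplasm and 0.27 in whole cells. Sox2 differed by -0.57 ± 0.16 (SE, limma, adjusted p = 0.0105), being -0.52 in the cytoplasm and 0.05 in whole cells. Dicer1 showed the same kind of difference, -2.54 ± 0.30 (SE, adjusted p = 1.74e-06), since its level in the whole cell libraries labelled day 12 was near that of day 0. Against whole cell day 10 neither factor passed the test. Under median-of-ratios scaling neither passed against the libraries labelled day 12 (limma, Sox2 -0.46, adjusted p = 0.0716, and Sall4 -0.50, 0.0769).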

How the results depend on the processing

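Of 520 values under the other settings 460 kept their direction and their side of the threshold, and of 468 with 1 library left out 410 did. The others are given here as log2 values, or F for the F-test, with the limma adjusted p, and the cause was not tested. "Minus day 10" and the like stand for the change in a fraction from day 0 to day 12 minus the whole cell change. With median-of-ratios scaling the call ended for Pou5f1 (0.27, 0.109) in whole cells at day 8, Pou5f1 (0.25, 0.198) in the libraries labelled day 12, Pou5f1 (2.35, 0.155) in the F-test and Sox2 (-0.46, 0.0716) and Sall4 (-0.50, 0.0769) in the cytoplasm minus the libraries labelled day 12. With median-of-ratios scaling a call was gained for Nanog (-0.81, 0.0276) between the fractions at day 0. With median-of-ratios scaling the sign turned for Nanog (-0.058) and Sox2 (-0.084) in whole cells at day 8, Sox2 (-0.012) in the libraries labelled day 12, Sox2 (0.047) within the nucleus and Pou5f1 (0.011) in the ratio change. With median-of-ratios scaling as well, the sign turned for Pou5f1 (0.027), Nanog (0.0085), Sox2 (0.030) and Sall4 (0.11) in the cytoplasm minus day 10 and Pou5f1 (0.010) and Sall4 (0.20) in the nucleus minus day 10. With quantile normalization the call ended for Sall4 (-0.50, 0.0753) in the cytoplasm minus the libraries labelled day 12. With quantile normalization a call was gained for Pou5f1 (0.36, 0.00139) in whole cells at day 10, Nanog (5.97, 0.0139) in the F-test, Nanog (-0.60, 0.00702) between the fractions at day 0 and Nanog (0.56, 0.0115) within the nucleus. With quantile normalization as well, a call was gained for Nanog (0.63, 0.0126) and Sox2 (0.45, 0.0114) in the nucleus minus day 10. With quantile normalization the sign turned for Sox2 (-0.048) in the libraries labelled day 12, Pou5f1 (-0.12) in the libraries labelled day 12 against day 10, Nanog (0.15) between the fractions at day 12 and Sox2 (0.10) within the nucleus. With quantile normalization as well, the sign turned for Sall4 (0.040) in the cytoplasm minus day 10 and Sall4 (0.12) in the nucleus minus day 10. With quantile normalization the calls came to 137 genes in the ratio change. With only the groups compared in the fit a call was gained for Pou5f1 (0.21, 0.0215) in whole cells at day 10, Nanog (0.31, 0.00303) in the libraries labelled day 12 against day 10, Nanog (-0.71, 0.0159) between the fractions at day 0 and Nanog (-0.27, 0.00318) and Sall4 (-0.35, 0.00375) within the cytoplasm. With only the groups compared in the fit the calls came to 438 genes in whole cells at day 4, 3793 genes in the libraries labelled day 12, 2112 genes within the nucleus and 9841 genes within the cytoplasm. With a replicate block the call ended for Sall4 (-0.29, 0.0559) in whole cells at day 10, Pou5f1 (0.31, 0.0648) in the libraries labelled day 12 and Pou5f1 (4.23, 0.0512) in the F-test. With a replicate block a call was gained for Nanog (-0.71, 0.0495) between the fractions at day 0. With a replicate block the calls came to 53 genes in the ratio change. With no filter on low values the call ended for Sall4 (-0.29, 0.109) in whole cells at day 10, Pou5f1 (0.31, 0.0832) in the libraries labelled day 12, Pou5f1 (5.42, 0.0596) in the F-test and Pou5f1 (-0.92, 0.0522) between the fractions at day 0. With no filter on low values as well, the call ended for Pou5f1 (-0.97, 0.0504) between the fractions at day 12. With protein-coding and lncRNA genes alone a call was gained for Nanog (-0.71, 0.0464) between the fractions at day 0. With protein-coding and lncRNA genes alone the calls came to 512 genes in whole cells at day 4 and 453 genes in the cytoplasm minus day 10. With a pseudocount of 1 the call ended for Sall4 (-0.29, 0.0502) in whole cells at day 10. Without the libraries labelled day 12 the call ended for Sall4 (-0.29, 0.0664) in whole cells at day 10. With a mean of at least 1 FPKM a call was gained for Nanog (-0.71, 0.0486) between the fractions at day 0. Without the 2 nuclear libraries farthest from their group a call was gained for Nanog (-0.86, 2.74e-06) between the fractions at day 0, Pou5f1 (0.56, 0.000728), Nanog (0.92, 7.26e-06) and Sall4 (-0.61, 0.000235) within the nucleus, Nanog (-0.27, 0.00191) and Sall4 (-0.35, 0.00140) within the cytoplasm and Nanog (1.18, 2.78e-05) and Sox2 (0.74, 0.000592) in the ratio change. Without the 2 nuclear libraries farthest from their group the sign turned for Nanog (0.32, 0.00123) between the fractions at day 12, Sox2 (0.22, 0.0351) within the nucleus and Pou5f1 (0.49, 0.00993) and Sall4 (-0.26) in the ratio change. Without the 2 nuclear libraries farthest from their group the calls came to 10885 genes between the fractions at day 0, 10197 genes between the fractions at day 12, 9613 genes within the nucleus and 10114 genes within the cytoplasm. Without the 2 nuclear libraries farthest from their group as well, the calls came to 6580 genes in the ratio change.

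Leaving out 1 library at a time changed a call or a sign for these values, given as lowest to highest. In the ratio change this was Nanog (0.47 to 1.04), Pou5f1 (-0.24 to 0.24), Sall4 (-0.11 to 0.15) and Sox2 (0.41 to 0.63). Between the fractions at day 0 this was Nanog (-0.86 to -0.62) and Pou5f1 (-1.17 to -0.73). Between the fractions at day 12 this was Nanog (-0.24 to 0.32) and Sox2 (-0.64 to -0.45). Within the nucleus this was Nanog (0.20 to 0.77), Pou5f1 (-0.17 to 0.31), Sall4 (-0.46 to -0.20) and Sox2 (-0.11 to 0.11). In the nucleus minus day 10 this was Nanog (0.31 to 0.88), Pou5f1 (-0.38 to 0.094), Sall4 (-0.17 to 0.10) and Sox2 (0.27 to 0.49). In whole cells at day 4 this was Nanog (-0.39 to -0.064), Pou5f1 (0.22 to 0.34) and Sox2 (-0.16 to 0.0079). In whole cells at day 8 this was Nanog (-0.022 to 0.10), Sall4 (-0.16 to 0.0023) and Sox2 (-0.018 to 0.033). In the F-test this was Nanog (1.43 to 18.6) and Pou5f1 (3.17 to 7.63). In the libraries labelled day 12 this was Pou5f1 (0.26 to 0.38) and Sox2 (-0.0032 to 0.11). In the cytoplasm minus day 10 this was Sall4 (-0.12 to 0.041). In the cytoplasm minus the libraries labelled day 12 this was Sall4 (-0.68 to -0.52). In whole cells at day 10 this was Sall4 (-0.39 to -0.23). Within the cytoplasm this was Sox2 (-0.56 to -0.47). Genes called numbered 24 to 1699 (227 with all) in the ratio change, 4129 to 4216 (5574 with all) within the cytoplasm, 545 to 671 (851 with all) in the cytoplasm minus day 10 and 4908 to 5386 (5746 with all) in the cytoplasm minus the libraries labelled day 12. They came to 5495 to 8483 (7152 with all) between the fractions at day 0, 4184 to 6576 (5837 with all) between the fractions at day 12, 4783 to 6737 (6281 with all) within the nucleus and 2089 to 3566 (2770 with all) in the nucleus minus day 10. Calls numbered 5722 to 6072 (6987 with all) in whole cells at day 10, 735 to 1721 (1071 with all) in whole cells at day 4, 3484 to 3942 (4769 with all) in whole cells at day 8 and 1062 to 1669 (2170 with all) in the libraries labelled day 12. Last, calls ran from 6022 to 6670 (7319 with all) in the libraries labelled day 12 against day 10 and 7581 to 11503 (8663 with all) in the F-test.

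Replicate numbers are shared between groups, but same-numbered libraries deviated together (r over 0.1) in 2 of 30 pairs in whole cells and 5 of 18 in fractions, so the replicate block stands only as a check. Scaling moved the balance of calls. Higher calls were 63.4% of calls at day 10 in whole cells, and 53.3% with median-of-ratios scaling or 44.4% with quantile normalization. For day 4 the shares were 72.8%, 70.7% and 56.5%, for day 8 67.7%, 56.3% and 45.9%, for the libraries labelled day 12 75.4%, 56.2% and 44.9%. Between the fractions they were 60.7%, 52.4% and 39.4% at day 0 and 54.1%, 50.2% and 39.6% at day 12. For the ratio change they were 20.7%, 31.6% and 40.9%, and in the cytoplasm minus day 10 22.0%, 42.5% and 43.9%. In the nucleus minus day 10 they were 16.8%, 41.0% and 51.9%, and in the cytoplasm minus the libraries labelled day 12 41.4%, 51.6% and 50.9%. The median of all genes went from 0.09 to -0.08 at day 10 with quantile normalization and from -0.19 to -0.02 in the nucleus minus day 10 with median-of-ratios scaling. Depth in reads is unknown, with 3 libraries a group, so changes smaller than the intervals given could not be resolved.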

Other observations

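At day 0, Pou5f1 in whole cells (322 to 350 FPKM) lay above both fractions of the same day, 288 to 294 FPKM in the cytoplasm and 119 to 218 in the nucleus. Sox2 (162 to 174 FPKM) and Sall4 (28.6 to 36.0) lay between their fraction means (124 and 255, and 26.3 and 52.1), and Nanog (211 on average) lay near its nuclear mean of 208. The primed factors stood apart more widely, with summed levels of 190 to 245 FPKM in whole cells against 91.6 to 103 in the cytoplasm and 33.7 to 61.8 in the nucleus. Most of that whole cell sum was Dnmt3b, at 134 ± 20.2 FPKM (SD, n = 3). By day 10 the whole cell sum was 95.3 to 98.2 FPKM, within the range of the cytoplasm at day 0. FPKM is relative within a library, the fractions were prepared apart from the whole cell extracts, and what makes these levels differ was not tested.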
